A study of Mus musculus with 12 samples.

Results

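The data described here are the response of wild-type (WT) mouse granulosa cells to human chorionic gonadotropin (hCG). They come from 6 of the 12 arrays of a study that crossed genotype with hormone treatment, chosen by their labels as the 3 WT arrays taken after pregnant mare serum gonadotropin (PMSG) alone and the 3 WT arrays taken after PMSG and then hCG. The PMSG group was collected 48 h after PMSG, and the hCG group received the same priming and then hCG 4 h before collection. The other 6 arrays had the same treatments, 3 arrays each, in bERKO mice, which lack estrogen receptor beta. All mice were 3 weeks old, and granulosa cells were cut from antral follicles by laser microdissection, so each sample is a bulk pool of captured cells. RNA was purified with a PicoPure kit, and 25 ng per sample went through NuGEN Ovation Pico WTA amplification before hybridisation to a one-colour mouse expression array. Per the labels the replicates are biological. How many animals gave the cells of 1 array was not stated there, so p-values measure the spread between these samples only.

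PMSG acts like follicle-stimulating hormone and brings a cohort of follicles to the preovulatory stage. hCG acts on the luteinizing hormone receptor of mural granulosa cells and stands in for the surge that starts ovulation, raising cAMP and releasing EGF-like ligands that carry the signal on to other granulosa and cumulus cells. The programme that follows is known to stop proliferation, build a hyaluronan matrix around the oocyte, induce prostaglandin synthesis and the progesterone receptor, and turn the follicle wall from estradiol towards progesterone production.

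A level below is log2(intensity + 16) after quantile normalization, on which an intensity of 0 lies at 4. A change is the mean level of the WT hCG arrays minus that of the WT PMSG arrays, given with its standard error (SE), over 3 arrays per group. The adjusted p is limma's after Benjamini-Hochberg correction over 18193 genes, fitted over all 12 arrays, and a gene rose or fell when it was under 0.05. Levels of different genes are not compared, because each comes from a probe set of its own.

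The captured cells carried granulosa markers. Of 12 markers on a list, 11 were measured and 9 lay above 9 on all 6 WT arrays, where 24.5% of all genes did. The exceptions were Wt1, lowest at 4.88, and Esr2, the gene of estrogen receptor beta, lowest at 8.68. Inha, the inhibin alpha subunit, ran from 14.08 to 14.47 over the 6 arrays, and Foxl2, a transcription factor of the granulosa lineage, from 11.93 to 12.84. WT hCG replicate 1 differed from the other arrays. Its ratio of 3' to 5' signal for Gapdh, a control for degraded or incompletely copied RNA, was 32.2, where the remaining WT arrays ran from 4.72 to 8.18, while its Actb ratio of 1.02 lay within the WT range of 0.886 to 1.15. Levels on WT hCG replicates 2 and 3 correlated at 0.967 across genes, which are not independent replicates. Replicate 1 correlated with replicates 2 and 3 at 0.933 and 0.926. The WT PMSG arrays correlated at 0.9295 to 0.942 with replicates 2 and 3, and at 0.919 to 0.924 with replicate 1. Counts of genes, and many of the list counts and gene values that depend on that array, are therefore given with it and without it. A single value is with all arrays unless the text says otherwise. Of the 48 named genes that passed with all arrays, 42 also passed without WT hCG replicate 1. The exceptions, Comp, Mboat1, Astn1, Cebpb, Sik1 and Rab3a, are given with both values. The array is left out because of the response it shows, so p-values without it describe the other arrays and are no independent evidence. What part RNA quality has in the difference was not tested. A bERKO array, PMSG replicate 3, also stood apart, with a Gapdh ratio of 23.7, the highest Actb ratio (1.61) and the lowest median level (6.02) of the 12; it enters the estimate of the spread, the choice of genes on the bERKO arrays and each difference between genotypes.

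To describe how much of the response each WT hCG array showed, genes were chosen on arrays that the measure does not use. A separate limma fit of the 6 bERKO arrays called 1009 genes higher after hCG (5.55% of the genes tested) and 1591 lower (8.75%). The 1009 genes lay a median of 0.07 above the WT PMSG mean on WT hCG replicate 1, 0.80 above it on replicate 2 and 0.83 above it on replicate 3. The share of them above all 3 WT PMSG arrays was 37.7%, 64.1% and 65.9% on the same arrays, beside 33.6%, 25.3% and 22.7% of all genes. Replicate 1 thus held the rising genes near the share seen over all genes, and the other arrays did not. The 1591 genes lower in bERKO lay at medians of -0.36, -0.72 and -0.80 on WT hCG replicates 1, 2 and 3, so that replicate 1 also carried the smallest fall.

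**Figure D1:**
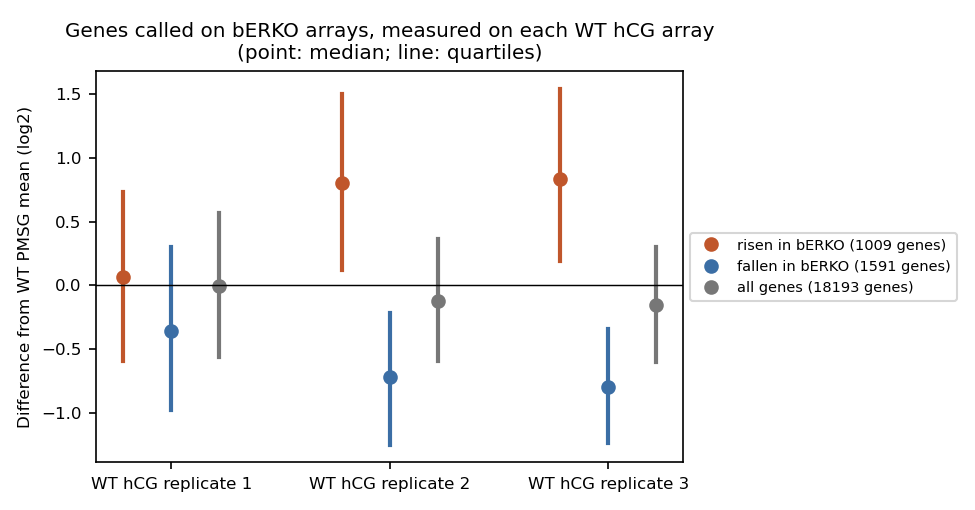
Genes called higher (1009) or lower (1591) after hCG in a fit of the bERKO arrays alone, and all 18193 genes, on each WT hCG array; points are medians and lines quartiles of the difference from the WT PMSG mean on the log2 scale. Risen genes sit near 0 on WT hCG replicate 1 and at 0.80 and 0.83 on replicates 2 and 3.

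With all arrays, 378 of 18193 genes differed between WT hCG and WT PMSG (2.08%), 133 higher (0.731%) and 245 lower (1.35%), and 3115 had an unadjusted p under 0.05. The changes of the risen genes ran from 1.03 to 6.78 with a median of 1.90, and those of the fallen genes from -4.80 to -0.96 with a median of -1.70. The median change of all genes was -0.08. The balance of higher and lower calls moved with the scaling: risen genes made up 35.2% of the calls here, 43.3% on the values as deposited (101 higher, 132 lower; median of all genes 0.03) and 18.1% after median-centring of the arrays (72 higher, 325 lower; median of all genes -0.22). All 378 called genes had WT hCG and WT PMSG arrays that did not overlap, as did 24.0% of all genes. In bulk samples, fewer cells of a kind and less RNA per cell cannot be told apart, here and in the results that follow.

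Without WT hCG replicate 1 the same fit called 474 genes (2.61%), 201 higher (1.1%) and 273 lower (1.5%). Every count of list members below is to be read beside these shares, and beside 0.731% higher and 1.35% lower with all arrays. Both fits shared 270 calls, 96 higher and 174 lower; 105 genes rose and 99 fell only without that array, and 37 rose and 71 fell only with it. The array weighed more on the rises. On it, the 201 genes that rose on the other arrays lay a median of 0.95 above the WT PMSG mean against 2.32 on replicates 2 and 3, and 143 of them lay above all WT PMSG arrays. The 273 fallen genes lay at -1.19 on it against -1.74, and 244 of them lay below all WT PMSG arrays. These genes were chosen on replicates 2 and 3, which favours those arrays in both comparisons. A fit of the 6 WT arrays alone, whose estimate of the spread rests on fewer arrays, called 31 genes (0.17%), 12 higher and 19 lower, and 28 of them were among the 378.

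The largest rise was that of an EGF-like ligand. Ereg encodes epiregulin, which activates the EGF receptor in follicle cells. Its levels on WT PMSG replicates 1 to 3 were 5.44, 4.49 and 4.08, and on WT hCG replicates 1 to 3 they were 8.35, 13.16 and 12.84. All hCG arrays lay above all PMSG arrays, with replicate 1 lowest of the 3. The change was 6.78 (SE 0.99, limma adjusted p = 0.00952), and 8.33 without replicate 1 (adjusted p = 1.86e-05). Btc, betacellulin, stood at 6.42, 6.67 and 7.0 after PMSG and at 7.34, 12.31 and 13.18 after hCG. Its groups did not overlap, but replicate 1 lay only just above the PMSG arrays. The change of 4.24 (SE 1.12) missed the threshold at a limma adjusted p of 0.0771 and passed without that array at 6.04 (adjusted p = 0.000136). Epgn, epigen, a further ligand of the receptor that was chosen after its values were seen, lay between 5.22 and 5.55 after PMSG and at 5.78, 10.47 and 10.29 after hCG. Of 13 measured EGF-like ligands and receptors, 1 rose and 0 fell with all arrays, beside 0.731% of all genes higher. The list's median change was then -0.32. Without replicate 1, 3 rose and 0 fell, beside 1.1% of all genes higher. The other measured ligands did not share the rise of these 3. The list held 14 genes, and a member without a measurement cannot be judged. Hbegf, heparin-binding EGF-like growth factor, chosen after its values were seen, lay from 8.97 to 9.89 after PMSG and from 5.92 to 7.15 after hCG, with no overlap and a change of -2.79 that missed the threshold (limma adjusted p = 0.0622).

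Prostaglandin synthesis was represented by Ptgs2, the inducible cyclooxygenase that ovulation requires. It stood at 4.05, 4.59 and 5.12 after PMSG, close to the floor of the scale, and at 8.18, 12.23 and 13.62 after hCG. The groups were far apart and replicate 1 was again the lowest hCG array. The change was 6.75 (SE 1.07, limma adjusted p = 0.0125), with 5.21 on its other probe set, and 8.34 without replicate 1 (adjusted p = 0.000161). It was the only gene of the 14 measured in the prostaglandin system to pass in either fit, and the median of that list was -0.03.

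Genes of the cumulus matrix needed the array to be left out. Has2, the hyaluronan synthase of the expanding cumulus, had levels of 5.38, 4.90 and 4.81 after PMSG and of 6.19, 9.05 and 8.71 after hCG. Tnfaip6, which links hyaluronan to other matrix proteins, had 5.84, 5.19 and 7.62 after PMSG and 6.13, 12.16 and 13.71 after hCG. For Has2 the groups did not overlap, and for Tnfaip6 replicate 1 lay among the PMSG arrays. The changes with all arrays were 2.95 for Has2 (SE 0.75, limma adjusted p = 0.0674) and 4.45 for Tnfaip6 (SE 1.44, adjusted p = 0.138). Without replicate 1, which was low in both, the changes passed at 3.85 for Has2 (adjusted p = 0.0121) and 6.72 for Tnfaip6 (adjusted p = 0.00112). Ptx3, pentraxin 3, a matrix scaffold, followed the same course: 4.61 with all arrays (adjusted p = 0.0622) and 6.36 without replicate 1 (adjusted p = 0.000435), with its other probe set at -0.52. Of 13 measured matrix genes, 0 passed with all arrays, beside 2.08% of all genes. Without replicate 1, 4 rose, beside 1.1% of all genes. The fourth was Vcan, versican, named here after its values were seen, at 1.5 without replicate 1 (adjusted p = 0.0198). With all arrays its change was 0.97 (adjusted p = 0.228), and its 8 probe sets ran from -0.06 to 2.01.

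**Figure D2:**
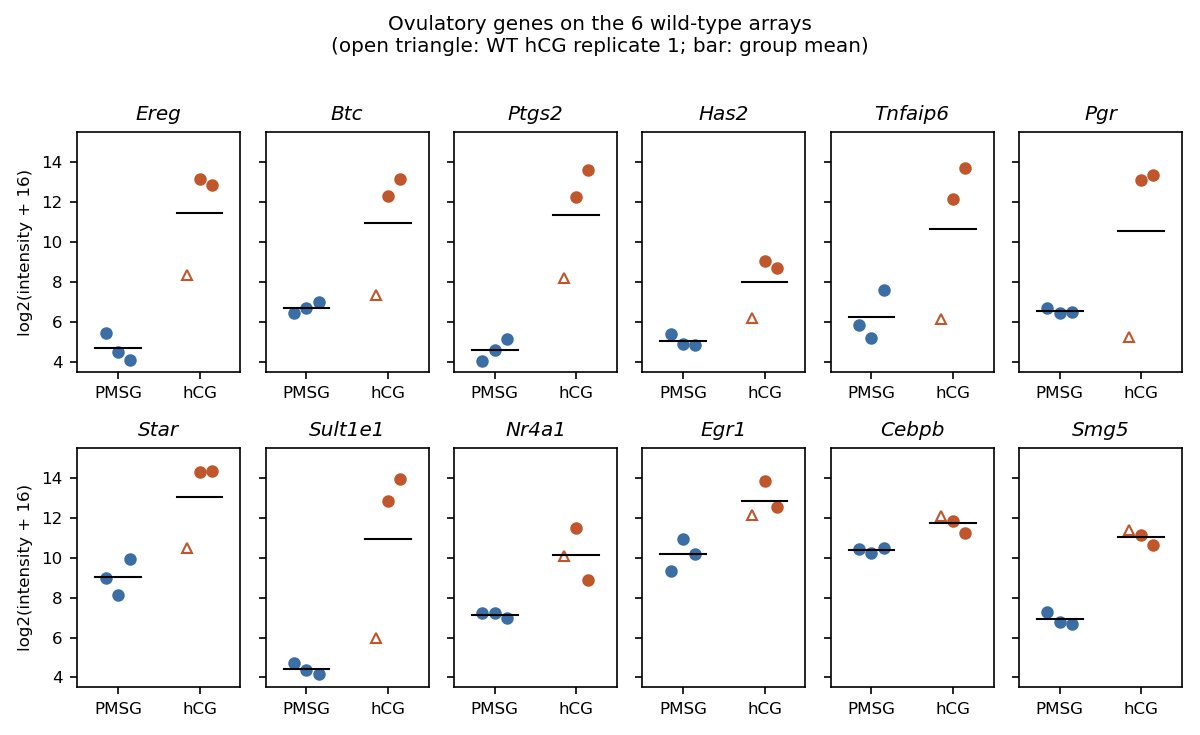
Levels (log2(intensity + 16)) of 12 genes on the 3 WT PMSG and 3 WT hCG arrays, with group means as bars and WT hCG replicate 1 as an open triangle. In Ereg, Btc, Ptgs2, Has2, Tnfaip6, Pgr, Star and Sult1e1 the triangle lies below the other hCG arrays, while in Cebpb and Smg5 it lies above them.

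Pgr, the nuclear progesterone receptor that follicle rupture requires, split the hCG arrays most plainly. After PMSG it stood at 6.67, 6.45 and 6.48, and after hCG at 5.21, 13.10 and 13.38. Replicate 1 lay below every PMSG array, and the others lay over 6 units above them. With all arrays the change of 4.03 had an SE of 1.60 and a limma adjusted p of 0.222, and without replicate 1 it was 6.70 (adjusted p = 2.46e-05). Of 18 measured genes in the list of Pgr and its ovulatory targets, 1 rose with all arrays, beside 0.731% of all genes. That gene was Cxcr4, a chemokine receptor, at 9.44, 8.41 and 9.43 after PMSG and 11.63, 13.61 and 13.97 after hCG (change 3.97, SE 0.63, limma adjusted p = 0.0127). Without replicate 1 the list's median was 0.58 beside -0.13 for all genes. Of the 18, 6 then rose and 0 fell, beside 1.1% of all genes higher and 1.5% lower. Snap25, a vesicle fusion protein known from synapses, was among them at 6.75 (adjusted p = 1.73e-06), and Prkg2, a cGMP-dependent protein kinase, at 4.73 (adjusted p = 0.00739); both were chosen after their values were seen. Snap25 lay at 4.86 on replicate 1, between PMSG levels of 4.85 and 5.10, and at 11.46 and 12.03 on the other hCG arrays. Adamts1, a protease that acts downstream of Pgr and cleaves versican, was high throughout, reaching 12.26 after PMSG and standing at 11.59, 12.81 and 12.65 after hCG, and passed in neither fit (change 0.22, limma adjusted p = 0.799).

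Immediate early genes respond within minutes to hours of a signal. In the 3 of them that rose with all arrays replicate 1 lay above every PMSG array. That held for every gene called higher, because no called gene had overlapping groups. Nr4a1, an orphan nuclear receptor, had PMSG levels of 7.24, 7.24 and 6.97 and hCG levels of 10.09, 11.51 and 8.87. Egr1, a zinc finger factor, had 9.35, 10.96 and 10.20 after PMSG and 12.17, 13.87 and 12.55 after hCG. In both genes the groups did not overlap; replicate 1 was the middle hCG array for Nr4a1 and the lowest for Egr1. Nr4a1 rose by 3.01 (SE 0.59, limma adjusted p = 0.0275) and Egr1 by 2.70 (SE 0.58, adjusted p = 0.0383). Sik1, a salt-inducible kinase under cAMP control, rose by 2.07 (SE 0.44, adjusted p = 0.0374; 2.19 and 0.0503 without replicate 1), and Fos did not pass at 1.75 (adjusted p = 0.129). Of 24 measured immediate early genes, 3 rose and 0 fell with all arrays (12.5%, beside 0.731% of all genes higher), and 7 rose and 0 fell without replicate 1 (beside 1.1%). With all arrays the changes of all 24 were above 0, with a median of 1.25 beside -0.08 for all genes. Nr4a2 was among the smallest at 0.13 and stood at -0.19 without replicate 1. The list's median was then 1.55 beside -0.13 for all genes. Among those not called with all arrays, some lay within the PMSG range on replicate 1. Egr3, chosen after its values were seen, stood at 5.03 there, within the PMSG range of 4.12 to 5.34, and at 9.98 and 10.53 on the other hCG arrays. With all arrays its change was 3.86, and its other probe set gave 0.80.

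Among 17 measured ovulatory transcription factors, 1 rose with all arrays, Cebpb, a factor that relays the luteinizing hormone signal. It had levels of 10.43, 10.25 and 10.48 after PMSG and of 12.10, 11.87 and 11.25 after hCG, so that replicate 1 was the highest WT array. The change was 1.36 (SE 0.28, limma adjusted p = 0.0327), and without replicate 1 it was 1.18 and missed the threshold (adjusted p = 0.0582). Its other probe set gave -0.64, a disagreement within the gene. Runx1, a runt-domain factor, had the opposite dependence, at 2.76 with all arrays (adjusted p = 0.0702) and 3.53 without replicate 1 (adjusted p = 0.0217). Without replicate 1, 2 of the 17 rose, Runx1 and Crem, a cAMP-responsive modulator chosen after its values were seen. The change of Crem was then 2.72 (adjusted p = 0.0033). With all arrays the 6 probe sets of Runx1 ran from 0.89 to 2.96 and the 4 of Crem from 0.40 to 2.82.

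The negative regulators of cAMP and MAP kinase signalling included a few rising genes. Pde4d, a cAMP phosphodiesterase, lay at 6.24, 6.29 and 6.41 after PMSG and at 8.79, 9.45 and 8.28 after hCG (change 2.52, SE 0.47, limma adjusted p = 0.023), with its other probe set at -0.95. Pde10a, a phosphodiesterase of cAMP and cGMP, rose by 2.74 (SE 0.52, adjusted p = 0.0257), and its 5 probe sets ran from -0.79 to 3.17. Of 23 measured genes of the cAMP pathway, 2 rose and 0 fell, or 3 and 0 without replicate 1. The gene that joined was Pde4b, chosen after its values were seen, at 1.75 without replicate 1 (adjusted p = 0.00734). With all arrays its change was 1.24 (adjusted p = 0.119), and its 6 probe sets ran from -0.34 to 1.87. Spred2, an inhibitor of Ras and MAP kinase signalling, rose by 2.12 (SE 0.40, adjusted p = 0.024; its 5 probe sets from 0.45) and was the 1 of 15 measured feedback inhibitors to do so. Dusp4, a MAP kinase phosphatase chosen after its values were seen, joined it without replicate 1 at 3.03 (adjusted p = 0.0191). The median of the feedback list was 0.60, with 13 of 15 changes above 0.

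The steroid genes moved in both directions. Star, which brings cholesterol into mitochondria and limits the rate of steroid synthesis, had levels of 8.98, 8.14 and 9.96 after PMSG and of 10.51, 14.33 and 14.33 after hCG. Every hCG array was above every PMSG array, replicate 1 by the least. The change was 4.03 (SE 0.84, limma adjusted p = 0.0345), and 5.30 without replicate 1 (adjusted p = 0.00033). Stard4, a carrier that moves cholesterol within the cell, went the other way, from 10.63, 10.45 and 10.14 to 8.86, 9.10 and 8.97 (change -1.43, SE 0.28, adjusted p = 0.0272). Cyp11a1, the side-chain cleavage enzyme that makes pregnenolone, did not pass: it stood at 11.35, 11.29 and 12.42 after PMSG and at 8.68, 11.76 and 12.12 after hCG, and its change of -0.83 turned to 0.25 without replicate 1. Thus 1 of 12 measured genes of steroid synthesis rose and 1 fell in each fit.

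The gene with the largest change without replicate 1, larger there than that of Ereg or Ptgs2, was Sult1e1, the estrogen sulfotransferase, which inactivates estradiol by sulfation. Its levels were 4.71, 4.38 and 4.19 after PMSG and 5.97, 12.84 and 13.95 after hCG. Replicate 1 lay above the PMSG arrays but well below the other hCG arrays. The change was 6.5 (SE 1.49, limma adjusted p = 0.048) and 8.97 without replicate 1 (adjusted p = 1.73e-06). Akr1c18, which converts progesterone to a less active metabolite, fell from 9.31, 9.60 and 9.10 to 6.07, 7.93 and 6.07 (change -2.65, SE 0.49, adjusted p = 0.0228). Hsd11b2, which inactivates glucocorticoids, fell by 2.06 (SE 0.32, adjusted p = 0.0123), with its lowest PMSG level at 11.88 and its highest hCG level, on replicate 1, at 10.61. Of 9 measured genes of steroid inactivation, 1 rose and 2 fell in each fit. Over all genes, 0.731% rose and 1.35% fell with all arrays, and 1.1% and 1.5% without replicate 1.

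Of 17 measured genes of cholesterol synthesis and uptake, 2 fell and 0 rose in each fit (11.8%, beside 1.35% of all genes lower with all arrays and 1.5% without replicate 1). Insig1, which holds the sterol-sensing machinery in the endoplasmic reticulum, stood at 12.95, 12.55 and 12.87 after PMSG and at 10.67, 11.39 and 11.66 after hCG (change -1.55, SE 0.29, limma adjusted p = 0.0251). Fdps, farnesyl diphosphate synthase, stood at 10.37, 9.62 and 10.11 after PMSG and at 6.58, 7.92 and 8.55 after hCG (change -2.34, SE 0.46, adjusted p = 0.0289); its other probe set gave -0.09. In both genes replicate 1 was the lowest of the hCG arrays, so here it moved further than the others. The list's median was -0.92, with 13 of 17 changes below 0, and -0.57 without replicate 1.

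Proliferation genes made up the list with the highest share of falls with all arrays; without replicate 1 that was steroid inactivation, with 2 of 9 against 4 of 26. Of 26 measured, 6 fell and 0 rose (23.1%, beside 1.35% of all genes lower), and 22 changes were below 0 with a median of -0.61. Rrm1, a subunit of ribonucleotide reductase, which supplies DNA building blocks, had PMSG levels of 12.77, 12.64 and 12.72 and hCG levels of 11.15, 10.95 and 10.95. The change was -1.69 (SE 0.21, limma adjusted p = 0.00592), and all 3 hCG arrays, replicate 1 included, lay close together; the gene's 3 probe sets ran from -1.69 to -0.07. Ccnb2, a mitotic cyclin, went from 12.03, 11.57 and 11.59 to 10.15, 9.98 and 9.94 (change -1.71, SE 0.28, adjusted p = 0.0154). Bub1 and Bub1b, kinases of the spindle checkpoint, fell, with changes of -1.72 (SE 0.25, adjusted p = 0.00952) and -2.09 (SE 0.39, adjusted p = 0.024). These 4 genes also fell without replicate 1, where 4 of 26 passed; Cdk1, at -1.33 with it and -1.15 without it (adjusted p = 0.0577), and Mcm3, at -1.27 and -1.19 (adjusted p = 0.0635), missed the threshold without it at changes of about the same size. A member of the cell cycle arrest list fell as well: Cdkn2c, an inhibitor of cyclin-dependent kinases, stood at 10.26, 9.96 and 10.09 after PMSG and at 8.05, 8.22 and 8.71 after hCG (change -1.78, SE 0.28, adjusted p = 0.0123). It was 1 of 16 measured on that list, of which 0 rose.

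**Figure D3:**
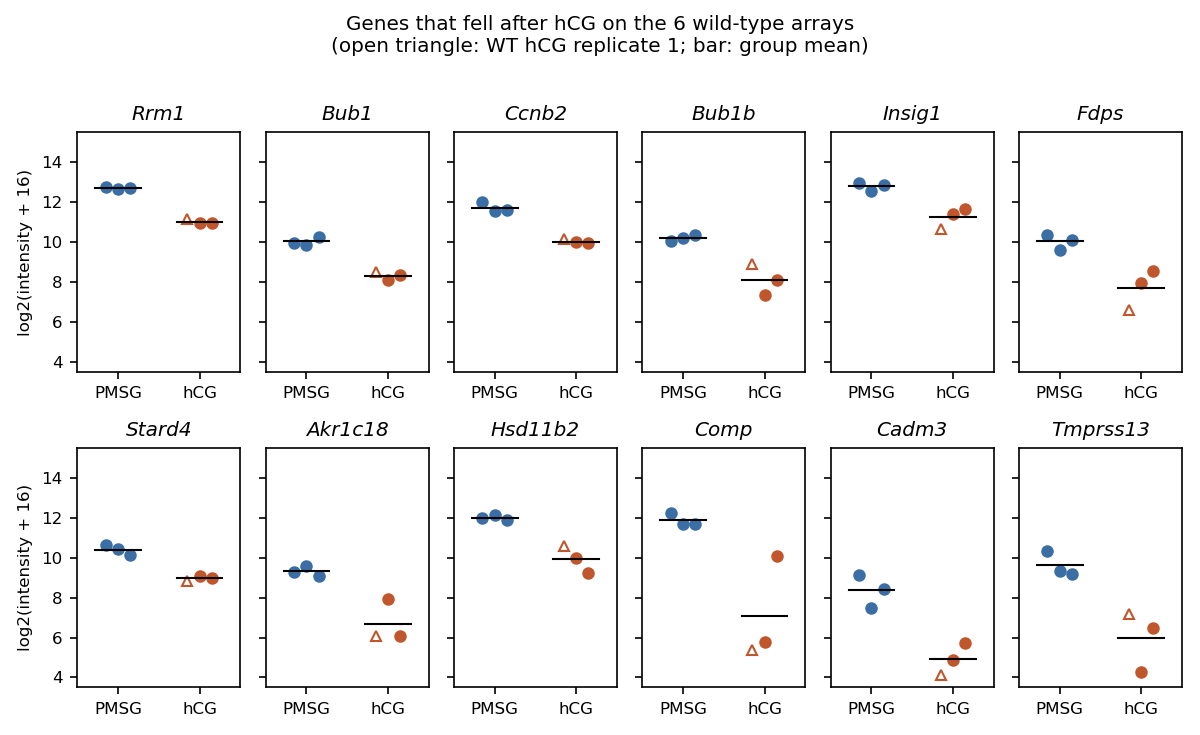
Levels (log2(intensity + 16)) of 12 genes that fell after hCG, on the 3 WT PMSG and 3 WT hCG arrays; bars are group means and the open triangle is WT hCG replicate 1. In each gene the groups do not overlap, and for Rrm1, Bub1, Ccnb2 and Stard4 the triangle lies close to the other hCG arrays.

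Of 25 measured genes that define the preovulatory granulosa cell, 1 rose and 0 fell, beside 0.731% of all genes higher and 1.35% lower. A list of this length would hold few calls in any case. The risen gene was Kitl, the ligand through which granulosa cells signal to the oocyte. Its levels were 10.64, 10.28 and 9.72 after PMSG and 11.17, 11.88 and 11.71 after hCG (change 1.38, SE 0.31, limma adjusted p = 0.0447). Fshr, the receptor of follicle-stimulating hormone, changed by 0.04 (SE 0.50, adjusted p = 0.983), a value whose sign turned with the scaling. Foxo1, a growth-restraining factor, stood at 14.46, 14.47 and 14.27 after PMSG and at 14.15, 13.91 and 14.23 after hCG (change -0.30, SE 0.29, adjusted p = 0.681). Its 4 probe sets ran from -0.42 to 0.18. Ccnd2, the cyclin of granulosa proliferation, changed by 0.31 (SE 0.24, adjusted p = 0.567), which became -0.03 with arrays centred on their medians, and Esr2 by -0.57 (SE 0.37, adjusted p = 0.486). A change that misses the threshold does not show that a level stayed the same.

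Of the remaining lists, most held 1 risen gene or none. Egln3, a prolyl hydroxylase of the oxygen-sensing pathway, had levels of 5.53, 4.67 and 5.38 after PMSG and of 8.53, 8.61 and 9.28 after hCG (change 3.61, SE 0.40, limma adjusted p = 0.00511), and 21 other measured genes of hypoxia and glycolysis did not pass. Id2, an inhibitor of helix-loop-helix factors, rose by 2.19 (SE 0.31, adjusted p = 0.00856) among 25 measured Wnt and TGF-beta family genes. Adamts9, a matrix protease, rose by 1.73 (SE 0.37, adjusted p = 0.0377) among 19 proteases and inhibitors. Hsp90aa1, an inducible chaperone, stood at 12.06, 11.61 and 11.94 after PMSG and at 13.49, 14.02 and 13.88 after hCG (change 1.93, SE 0.26, adjusted p = 0.0069); its 5 probe sets ran from -0.71 to 1.93. With Hsph1 at 1.30 (adjusted p = 0.0473), 2 of 15 heat shock genes rose and 0 fell, beside 0.731% of all genes higher. Of 22 measured cytokines and chemokines, 0 passed in either fit. Socs3, a brake on cytokine signalling, was the member with the smallest p, and its change of 3.20 (adjusted p = 0.134) was 1.78 without replicate 1, which stood at 12.73 against 8.95 and 8.0 on the other hCG arrays.

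Nerve and synapse genes depended on the array left out. With all arrays 0 of 19 rose and 1 fell, Rab3a, a vesicle protein (change -1.91, SE 0.44, limma adjusted p = 0.0478; -2.04 and 0.0599 without replicate 1). Without replicate 1, 4 of the 19 rose and 0 fell, beside 1.1% of all genes higher and 1.5% lower. Among the 4 were Snap25 and, chosen after its values were seen, Nts, neurotensin. Nts stood at 4.19, 5.41 and 4.91 after PMSG and at 4.87, 10.85 and 13.42 after hCG. Replicate 1 lay inside the PMSG range, and the change was 4.88 with all arrays (adjusted p = 0.127) and 7.30 without it (adjusted p = 0.00077). Adcyap1, the peptide PACAP, also counted on the list of Pgr targets and chosen after its values were seen, had a change of 4.21 without replicate 1 (adjusted p = 0.0408).

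**Figure D4:**
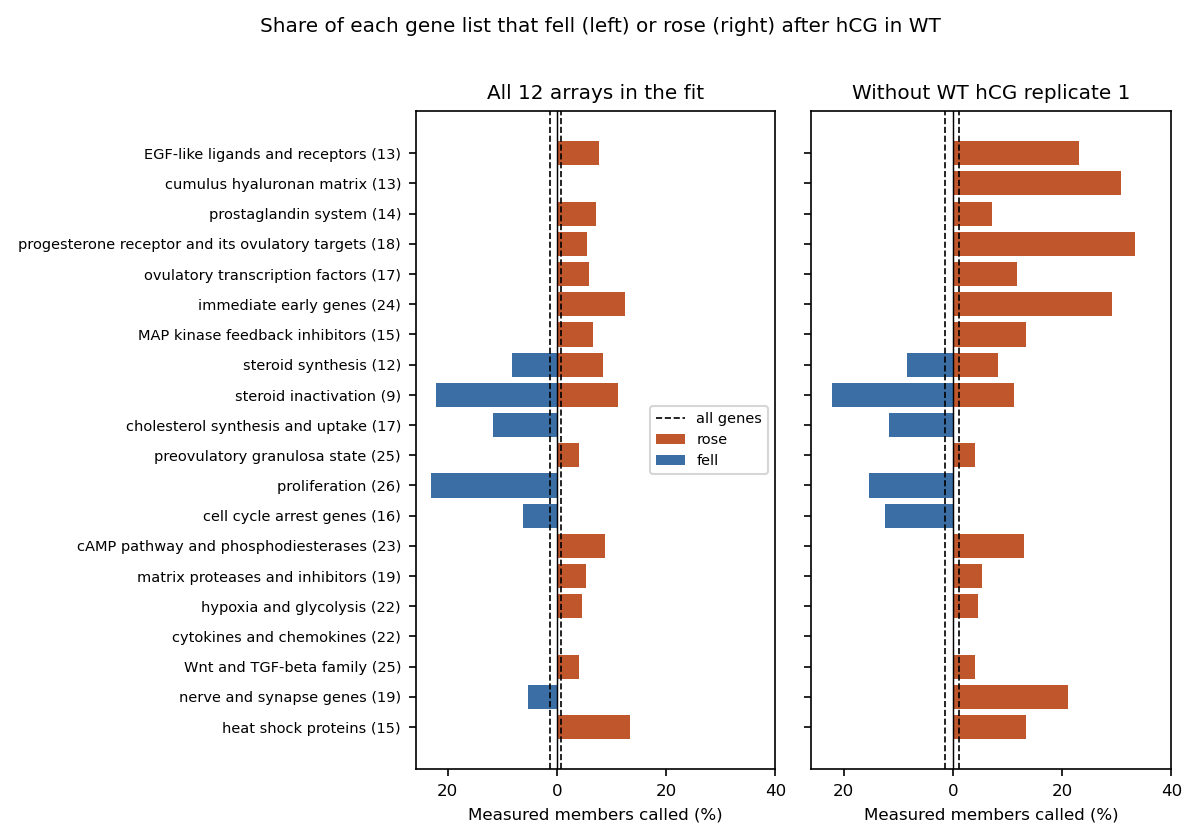
Percent of the measured members of each of 20 gene lists (number in brackets) that rose (right of 0) or fell (left of 0) after hCG in WT, with all 12 arrays in the fit and without WT hCG replicate 1; dashed lines mark the share of all genes. Proliferation has the highest share of falls with all arrays (23.1%), and the shares of risen cumulus matrix, Pgr target, immediate early and nerve genes are higher in the right panel.

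Several of the 12 largest rises lay outside these lists, and in some of them replicate 1 was no lower than the others. Smg5, a factor of nonsense-mediated RNA decay, had levels of 7.27, 6.80 and 6.66 after PMSG and of 11.39, 11.13 and 10.63 after hCG. The 3 hCG arrays lay close together, and the change of 4.14 (SE 0.32, limma adjusted p = 0.00045) was 3.97 without replicate 1; the gene's other probe set gave 0.47. Peg10, an imprinted gene derived from a retrotransposon, had 8.09, 7.59 and 8.10 after PMSG and 11.95, 12.96 and 12.01 after hCG (change 4.38, SE 0.62, adjusted p = 0.00869). Hmga2, a chromatin protein, had 6.17, 5.54 and 5.54 after PMSG and 9.90, 10.16 and 8.53 after hCG (change 3.78, SE 0.55, adjusted p = 0.00952), with its 4 probe sets between 0.54 and 3.78. The remaining ones were Zfp365 at 4.28, with another probe set at 2.17, Rnd3 at 4.00, Lepr, the leptin receptor, at 3.77, with 4 probe sets from 1.70, and Nmu, the neuropeptide neuromedin U, at 3.63. In these 4 genes replicate 1 was the lowest hCG array and still above every PMSG array.

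The 12 largest falls belonged to none of the lists. Comp, a cartilage matrix protein, stood at 12.27, 11.69 and 11.70 after PMSG and at 5.38, 5.80 and 10.07 after hCG. Replicate 3 fell the least, and the change of -4.80 (SE 0.96, limma adjusted p = 0.03) was -3.95 without replicate 1 and then missed the threshold (adjusted p = 0.0592). Tmprss13, a membrane serine protease, stood at 10.36, 9.34 and 9.21 after PMSG and at 7.17, 4.28 and 6.48 after hCG (change -3.66, SE 0.62, adjusted p = 0.0176). Cadm3, a cell adhesion molecule, stood at 9.15, 7.50 and 8.44 after PMSG and at 4.11, 4.86 and 5.74 after hCG (change -3.46, SE 0.47, adjusted p = 0.0069), with 3 probe sets between -3.46 and -2.34. Ciart, a repressor of the circadian clock, fell by 3.20 (SE 0.60, adjusted p = 0.025). The others were Igk at -4.07, an immunoglobulin light chain locus whose 4 probe sets ran up to 0.28, Mboat1 at -3.97, with another probe set at -0.58, Astn1 at -3.62, Insyn2b at -3.52, Particl at -3.28, with 5 probe sets up to -0.10, Cby1 at -3.18, Ces2g at -3.13 and Otor at -3.06. Without replicate 1 the changes of Mboat1 and Astn1 were -3.46 and -3.55 and missed the threshold (adjusted p of 0.0883 and 0.0827), and the other 9 apart from Comp passed. Of the risen genes, 11 had a WT PMSG mean under 5 and of the fallen genes 16 had a WT hCG mean under 5, where the offset holds the change down.

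Markers of other ovarian cell types were measured beside these genes. Of 9 theca and interstitium, 14 endothelial, 19 leukocyte, 15 stroma and smooth muscle, 14 oocyte, 6 erythrocyte and 11 surface epithelium markers, 0 passed in either direction with all arrays, and 0 without replicate 1. Over all genes 2.08% and 2.61% passed, so lists of this length would hold few calls in any case. Some members had groups that did not overlap, as did 24.0% of all genes, and did not pass. Among them were Cdh5 (-2.00, limma adjusted p = 0.0644) and Enpep (-1.84, adjusted p = 0.122). Tcf21 (1.40, adjusted p = 0.209) and Upk3b (1.17, adjusted p = 0.226) went the other way. WT PMSG replicate 3 had the highest mean level of oocyte markers, 8.03 against 5.71 to 6.51 on the other WT arrays, and of stroma and smooth muscle markers, 7.82 against 5.59 to 6.95. Mean levels of leukocyte markers ran from 5.10 to 5.72 after PMSG and from 5.39 to 5.67 after hCG, with C1qa, C1qc and Cd14 under 5 on all 6 arrays. Endothelial markers ran from 5.70 to 6.19 after PMSG and from 5.71 to 5.84 after hCG, theca and interstitium markers from 6.83 to 7.73 and from 7.39 to 7.50. What part these cells have in single changes was not tested.

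Promoter sequence is shown for risen genes because cAMP acts on transcription partly through the cAMP response element (CRE), whose short form is TGACG, or CGTCA on the other strand. Windows from 250 bases before to 50 bases after the start of transcription came from RefSeq on build GRCm38.p6 and were found for 19 of the 25 risen genes named by rule, 7 of which held the short form. The 4 with the largest changes are Ptgs2 (chr1:150099781-150100080, plus strand), Nmu (chr5:76363728-76364027, minus strand), Egln3 (chr12:54203825-54204124, minus strand) and Nr4a1 (chr15:101266596-101266895, plus strand). Each is written 5' to 3' on the strand of its gene, in lower case with the short form in capitals.
Ptgs2: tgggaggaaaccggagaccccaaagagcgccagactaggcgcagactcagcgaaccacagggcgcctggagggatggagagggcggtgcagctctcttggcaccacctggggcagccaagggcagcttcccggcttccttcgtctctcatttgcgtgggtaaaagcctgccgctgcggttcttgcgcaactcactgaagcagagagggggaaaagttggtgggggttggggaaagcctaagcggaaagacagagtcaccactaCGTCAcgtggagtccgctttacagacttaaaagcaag
Nmu: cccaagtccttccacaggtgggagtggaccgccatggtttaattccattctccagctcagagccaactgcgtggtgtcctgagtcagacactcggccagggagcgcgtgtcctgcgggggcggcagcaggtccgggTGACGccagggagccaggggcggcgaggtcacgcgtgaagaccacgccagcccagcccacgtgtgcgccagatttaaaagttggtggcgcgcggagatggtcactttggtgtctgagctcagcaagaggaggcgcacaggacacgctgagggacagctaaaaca
Egln3: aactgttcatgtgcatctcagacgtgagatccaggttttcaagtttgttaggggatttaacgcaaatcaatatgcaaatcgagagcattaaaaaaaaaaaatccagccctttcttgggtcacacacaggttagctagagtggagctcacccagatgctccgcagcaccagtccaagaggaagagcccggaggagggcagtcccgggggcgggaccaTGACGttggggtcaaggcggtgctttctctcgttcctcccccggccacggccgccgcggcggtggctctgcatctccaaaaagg
Nr4a1: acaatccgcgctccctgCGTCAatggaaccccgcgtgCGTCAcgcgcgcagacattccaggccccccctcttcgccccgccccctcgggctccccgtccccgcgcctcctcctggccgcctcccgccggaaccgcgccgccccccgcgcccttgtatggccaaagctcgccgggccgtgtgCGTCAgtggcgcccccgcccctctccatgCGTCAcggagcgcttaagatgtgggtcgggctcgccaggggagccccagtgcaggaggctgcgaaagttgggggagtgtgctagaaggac
Counted from the start of transcription, the short form begins at 14 in Ptgs2, -114 in Nmu and -34 in Egln3, and Nr4a1 holds 4, at -233, -213, -69 and -40. None of the 4 windows holds the full CRE, TGACGTCA. On either strand the short form lay in 34.7% of the 98 risen genes with a window, in 30.1% of the 196 fallen genes and in 27.2% of all 14452 genes with a window. The full CRE, which contains the short form, lay in 1.02%, 5.1% and 2.68% of them. The AP-1 site TGANTCA lay in 3.06%, 4.08% and 6.33%, and the NR5A site CAAGGTCA in 2.04%, 2.55% and 1.33%. For the 149 risen genes with a window in the fit without WT hCG replicate 1 the shares were 36.9% for the short form, 1.34% for the full CRE, 8.72% for AP-1 and 1.34% for NR5A, so the AP-1 share passed from below to above that of all genes. A match describes the letters of these windows and is not a site of binding.

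The response of bERKO cells, measured on other arrays, gives a second reading of the WT genes. It is not a fully separate one, because the bERKO arrays also entered the spread behind the WT calls. The fit over all 12 arrays called 3447 genes in bERKO (18.9%) against 378 in WT; these counts were not tested against each other. The calls in bERKO were 1283 higher and 2164 lower. Markers of some other cells moved with the bERKO response in that fit. Of 14 oocyte markers 7 fell and 0 rose (median -2.21). Of 14 endothelial markers 5 rose (median 1.51), of 15 stroma and smooth muscle markers 3 rose (median 1.43), and 0 of either fell. Of 9 theca and interstitium markers 4 rose and 2 fell. Fewer moved on the remaining lists. Of 19 leukocyte markers 2 rose and 1 fell, and of 11 surface epithelium markers 0 rose and 1 fell. Of 6 erythrocyte markers 0 were called. The part of other cells in the bERKO response and in the differences between genotypes was not tested. Esr2, the gene removed in bERKO, lay between 8.13 and 8.64 on the 6 bERKO arrays, below the lowest WT level of 8.68; whether its probe set lies in the deleted part was not known here, so this is no full check of the labels. Of the 133 genes that rose in WT, 77 also rose in the fit of the bERKO arrays alone (57.9% of the WT genes, 7.63% of the 1009) and 3 fell. Of the 245 that fell, 137 also fell there (55.9%, and 8.61% of the 1591) and 4 rose. Without WT hCG replicate 1 the shares were 82.1% of 201 risen genes and 63.4% of 273 fallen genes. Over the 133 risen genes the median change was 1.90 in WT and 1.27 in bERKO, and over the 245 fallen genes it was -1.70 and -1.39; the WT values are those that chose the genes.

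The test of the difference between the responses, WT minus bERKO, called 239 genes (1.31%), and 2783 had an unadjusted p under 0.05. Without WT hCG replicate 1 it called 115 (0.632%), of which 106 were among the 239. It did not call the ovulatory genes with the largest changes. The difference was -2.55 for Ereg (adjusted p = 0.42), -2.65 for Ptgs2 (adjusted p = 0.441), -4.47 for Pgr (adjusted p = 0.381) and -2.48 for Star (adjusted p = 0.35). Leaving out replicate 1 brought these to -1.0, -1.06, -1.79 and -1.20. Of the 378 genes called in WT, 25 (6.61%) also differed between the genotypes, and 11 of them did so without replicate 1. Cadm3 was one: it fell by 3.46 in WT and rose by 3.66 in bERKO (difference -7.12, limma adjusted p = 0.00364, and 0.00923 without replicate 1). Comp, which rose by 3.73 in bERKO, differed by -8.53 (adjusted p = 0.0136, and 0.0344 without replicate 1). In both genes the genotypes already differed after PMSG alone. The bERKO PMSG levels were 4.05, 4.15 and 4.05 for Cadm3, near the floor of the scale, against a WT mean of 8.36. For Comp they were 7.19, 6.94 and 5.73 against a WT mean of 11.89.

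Foxo1 was not called in WT and fell by 2.96 in bERKO, with a difference of 2.66 (limma adjusted p = 0.0135, and 0.0344 without replicate 1). Sfrp4, a secreted Wnt antagonist, had the largest difference below 0. Its bERKO levels after PMSG were 6.41, 5.99 and 4.32. In WT it stood at 10.55, 10.35 and 11.70 after PMSG and at 6.74, 11.44 and 13.17 after hCG, a change of -0.42 that was 1.44 without replicate 1, against a rise of 8.64 in bERKO (difference -9.05, adjusted p = 0.0339). The largest difference above 0 was that of Limch1, at 5.63 (adjusted p = 0.0136), with a change of 1.52 in WT (adjusted p = 0.241) and a fall of 4.11 in bERKO. In WT its 4 probe sets ran from 0.02 to 1.52.

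**Figure D5:**
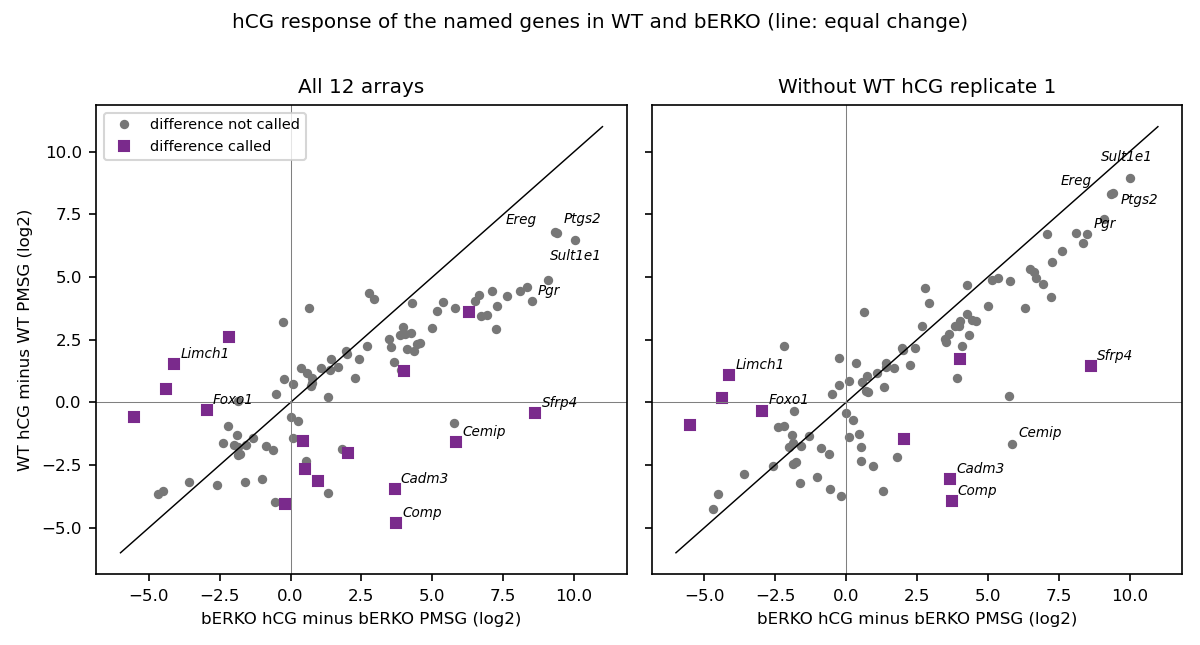
Change after hCG (log2) of the named genes in bERKO (x axis) and WT (y axis), with all 12 arrays and without WT hCG replicate 1; squares are genes whose responses differed by limma and the line marks equal change. Ereg, Ptgs2, Pgr and Sult1e1 lie below the line in the left panel and nearer to it in the right panel, and Comp and Cadm3 lie below 0 in WT and above 0 in bERKO in both.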

How the data were processed

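Expression was measured on 12 one-colour arrays, 3 per group, of which 6 carry the WT response. The deposited values are linear intensity, 1 per probe set, which the authors had scaled to a common 2% trimmed mean; the software behind them is not stated in the labels or the file header. Precision is limited by having 3 arrays per group. Of 45101 probe sets, 64 controls were left out, the other 45037 were quantile normalized and log2(intensity + 16) was taken. A platform table named 1 gene for 34945 probe sets (34741 with a current record), several for 932, and did not list 9160. Each gene was read from the brightest on average of the probe sets naming only it, which left 18193 genes, 9010 with several probe sets; no dim genes were filtered out.

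Group means of the 4 groups over all 12 arrays were compared in R 4.3.3 with limma 3.58.1 and statmod 1.5.0, two-sided, with Benjamini-Hochberg adjustment. The figures used Python 3.11.15 and matplotlib 3.10.9. No 2 arrays held identical values (0 pairs). Tested on simulated data with 200 genes changed in each of 5 draws, this WT comparison over 18193 genes recovered 5.37% of log2 changes of 1, 62.4% of 2 and 83.6% of 3. False calls numbered 30 over the 5 draws. The changed genes were drawn from brighter genes only, and the noise was alike on all arrays, with no array that stood apart. Recovery in the data themselves can therefore be lower.

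The comparison, the 27 gene lists (20 functional, 7 of markers; 443 of 482 genes measured) and the naming rule were chosen with earlier results of these data known. Named were the 12 largest called changes per direction whose groups did not overlap, up to 4 called members of each list by p (up to 2 uncalled where none passed), 21 ovulatory and granulosa genes, and the 4 largest differences between genotypes per direction; predicted and unnamed genes were skipped. Of the 21, 4 lacked a probe set of their own among those used and were not analysed here. Alternatives were the deposited or median-centred values, other offsets, a filter on dim genes, probe-set means, the WT arrays alone, array weights, a replicate block and leaving out arrays.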

Additional observations from a re-analysis of the deposited data

Results flagged for a closer look

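For 16 of the named genes the response to hCG differed between the genotypes by limma's test of the difference (WT change minus bERKO change, adjusted p under 0.05). Below 0 were Sfrp4 at -9.05, Comp at -8.53, Cemip at -7.43, Cadm3 at -7.12, Ces2g at -4.08, Cdh5, an endothelial cadherin, at -4.03, Igk at -3.88, Akr1c18 at -3.17, Pde4b at -2.77, Egln3 at -2.68 and Insig1 at -1.99. Above 0 were Limch1 at 5.63, Kazald1 at 4.93, Tex14 at 4.92, Cldn11, a tight junction protein, at 4.77 and Foxo1 at 2.66. The adjusted p of Akr1c18 was 0.05 after rounding. Igk lay at 5.067, 4.172 and 4.175 after PMSG in bERKO, near the floor of the scale, so a fall there could hardly show. Sfrp4, Comp and Cadm3 also lay lower in bERKO than in WT after PMSG. What part unequal starting levels have in these differences was not tested. The 6 probe sets of Pde4b ran from -0.34 to 1.87 in the WT change, and the 3 of Cemip from -1.59 to 0.63. Without WT hCG replicate 1, the difference still passed for Comp, Cadm3, Cdh5, Foxo1, Sfrp4, Limch1, Kazald1, Tex14 and Pde4b, and not for Igk (adjusted p = 0.0549), Ces2g (0.0809), Akr1c18 (0.109), Insig1 (0.0718), Egln3 (0.104), Cemip (0.0793) and Cldn11 (0.101).

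Pde4b was chosen after its values were seen and Sfrp4, Cemip, Limch1, Kazald1, Tex14 and Cldn11 for the size of the difference. Comp and Cadm3 were named for the size of the difference as well as for their falls in WT.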

How the results depend on the processing

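The number of genes called in WT (378 as reported) depended on the setting: 233 on the deposited values, 140 with an offset of 1 and 870 with one of 64, 933 among the 9096 genes above the median level, 31 from the 6 WT arrays alone, 1598 with limma's array weights, and 835 without both WT hCG replicate 1 and bERKO PMSG replicate 3, an alternative chosen after seeing the data. Leaving out 1 array gave 49 (without WT hCG replicate 2) to 580 calls (without bERKO PMSG replicate 3); it was 62, 75 and 67 without WT PMSG replicates 1, 2 and 3, 225 without WT hCG replicate 3, and 231 and 199 without bERKO hCG replicates 1 and 2. Without WT hCG replicate 1 (474), the counts were 296 deposited, 211 and 1057 with the offsets, 1177 above the median and 148 on the WT arrays. For the difference between responses (239) they were 95 and 454 with the offsets, 376 above the median, 420 with array weights, 120 without both arrays and 81 to 408 leaving out 1 array.

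The replicate numbers did not pair the samples: deviations of same-numbered arrays correlated at 0.00478, -0.0197 and -0.00668. A replicate block gave 148 calls in WT and 129 in the difference.

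Among 48 called named genes, 0 turned sign in a setting with 1 value per gene (42 of them were left by the filter on dim genes); other probe sets of Cebpb, Pde4d, Pde10a, Hsp90aa1 and Igk have the opposite sign. The call was kept by 38 on the deposited values, 41 median-centred, 19 with an offset of 1, 33 with probe-set means, 7 on the WT arrays alone and 25 with the block, by 13, 14 and 16 without WT PMSG replicates 1, 2 and 3, and by 42, 14 and 30 without WT hCG replicates 1, 2 and 3. Uncalled changes that turned sign were Adamts1 (-0.15 median-centred; leaving out 1 array gave -0.014 to 0.60), Cyp11a1 (0.25 without both arrays; leaving out 1 gave -1.47 to 0.25), Fshr (-0.018 deposited, -0.27 median-centred, -0.34 with array weights, -0.33 without both; leaving out 1 gave -0.33 to 0.46), Ccnd2 (-0.027 median-centred) and Sfrp4 (0.57 with array weights, 1.44 without both; leaving out 1 gave -1.78 to 1.44). The median of genes fallen in bERKO on WT hCG replicate 3 became -1.06 median-centred. Median-centring also turned the medians of 4 lists, matrix proteases (-0.07), cytokines (-0.05), heat shock proteins (-0.10) and erythrocyte markers (-0.17), below 0. Causes were not tested.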
